A study of Mus musculus with 3 samples.

Results

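The sarcomere and Z-disc genes described here are 36 protein-coding genes chosen by symbol for their known place in the sarcomere, out of 56748 genes in the count table. They encode myosin light chains and myosin-binding protein, troponins and tropomyosins, titin and M-band proteins, nebulins, tropomodulins and leiomodins, Z-disc proteins, and chaperones and a kinase that act on the sarcomere.

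Bulk RNAseq was performed on adult mouse cardiomyocytes (ACMs) in culture to ask which transcripts respond to oncostatin M (OSM) and interleukin-6 (IL-6), cytokines that signal through gp130. The ACMs, which the study describes as ventricular, came from WT mice aged 8 to 10 weeks. An inhibitor of contraction, 2,3-butanedione monoxime (BDM), was present at 10 mM throughout culture, and serum, at 5%, was present only while the cells attached to laminin (3 to 4 h). The M199 medium used after that had 0.1% BSA, lipid and insulin-transferrin-selenium in its place. The groups were vehicle (0.1% BSA), human IL-6 at 10 ng/mL and mouse OSM at 10 ng/mL, each given for 16 h, so that WT genotype, BDM, BSA and culture were shared by all of them. RNA was pooled before sequencing, and each condition was 1 library, of 24939980 counts (vehicle), 26362446 counts (IL-6) or 30773001 counts (OSM). No difference below has a replicate check: each comparison is between libraries, not conditions, and intervals cover counting error only. The comparisons of OSM and of IL-6 with vehicle share the vehicle library, and their values are given side by side without being related to each other.

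The sarcomere is the contractile unit of striated muscle, in which myosin thick filaments slide past actin thin filaments anchored at the Z-disc. Calcium binding to troponin moves tropomyosin on the thin filament and lets myosin attach, while titin spans from the Z-disc to the M-band and acts as a spring. Sarcomere transcripts are among the most abundant of the adult cardiomyocyte, and their proteins include many that are mutated in inherited cardiomyopathy.

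A fold change is the log2 ratio of counts scaled by TMM (trimmed mean of M values), with its 95% counting interval, and a gene was called when that whole interval lay beyond 2-fold. With OSM against vehicle, 1 of the 36 members rose, the small heat shock protein gene Cryab, and 3 fell, Nebl, Neb and Ttn, but of these 4 only Nebl was still called when the trend of fold change on gene length, given further on, was subtracted. Cryab then stood at 0.72 and Neb at -1.14 (-1.80 to -0.52), neither called, and Ttn turned sign. At the length of Ttn that trend rests on few genes. Ttn lay below the quartiles of the protein-coding genes nearest in length, but these start at 12766 bases, far short of its 117334. The 15 other genes longer than 30000 bases, at the depth used for that trend, ran from -1.98 to 1.01, with a median of -1.03. In this pair Cryab was also not called by an exact test that assumes a coefficient of variation of 0.2 between replicates, although the same test called it higher with OSM against IL-6. That test called Nebl, Neb and Ttn lower in both OSM pairs, but with an assumed 0.4 it called 0 members in either. Nebl and Neb encode nebulette and nebulin, which bind the thin filament, and Ttn encodes titin. Over all 15537 genes compared in this pair, 3.70% were called higher and 5.46% lower. With IL-6 against vehicle, 0 members were called in either direction, where 1.77% of 15472 genes were called higher and 1.74% lower. Among the 10928 genes with at least 100 counts over that pair, only 12 were called higher and 7 lower. With OSM against IL-6, which uses the same OSM library, Cryab was called higher and Nebl, Neb and Ttn lower (of which only Nebl was called after subtraction of the length trend, Ttn again with the other sign), and 4.24% of 15544 genes were called higher and 5.44% lower.

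By the wider rule that the whole interval lies on 1 side of 0, 15 members were higher with OSM than with vehicle and 18 were lower, beside 33.1% and 33.4% of all compared genes. The same rule gave 12 members higher and 5 lower with IL-6 than with vehicle (19.6% and 19.1% of all compared genes), and 15 higher and 18 lower with OSM than with IL-6 (33.2% and 33.2%). Most members had high counts, so that small ratios exceeded their counting error. The median log2 fold change of the 36 members was -0.07 with OSM against vehicle, with quartiles of -0.54 and 0.42, beside a median of 0.00 over all compared genes with quartiles of -0.52 and 0.43. For IL-6 against vehicle the members' median was 0.02, with quartiles of -0.01 and 0.07 and a range from -0.18 to 0.40. For OSM against IL-6 the members' median was -0.16, and over all compared genes it was 0.00 in each of these pairs. Fewer cardiomyocytes and less RNA per cardiomyocyte cannot be told apart in these bulk libraries.

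**Figure D1:**
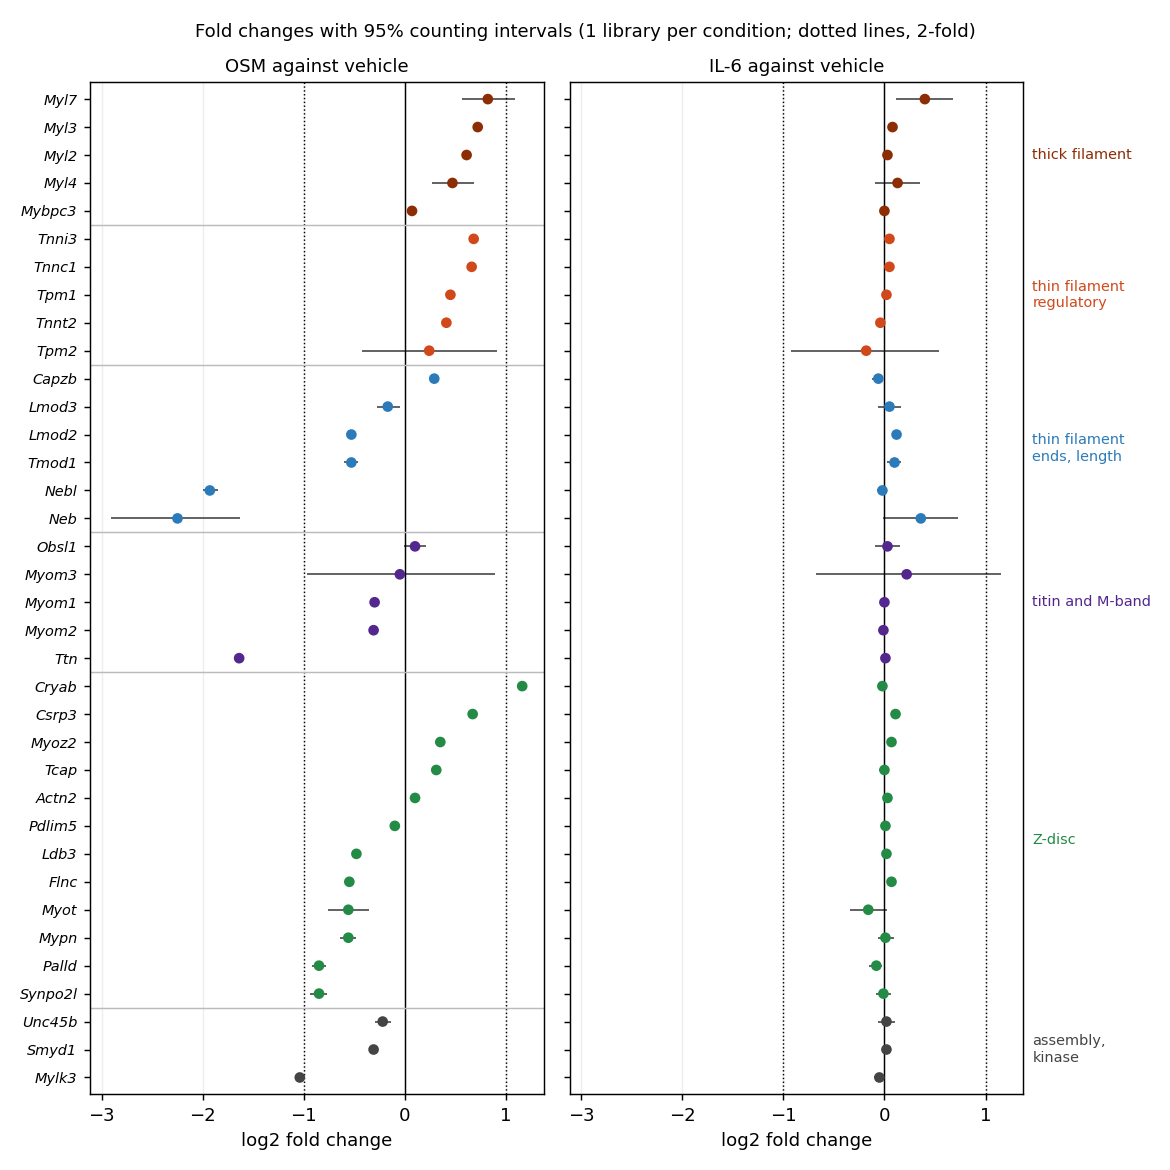
Log2 fold changes of the 36 members (points) with 95% counting intervals (lines), grouped by role, for OSM against vehicle on the left and IL-6 against vehicle on the right, which share the vehicle library. With OSM the values run from -2.25 (Neb) to 1.16 (Cryab), and with IL-6 from -0.18 to 0.40. Dotted lines mark 2-fold. Of the 4 called members only Nebl is called, and Ttn turns sign, once the trend on gene length is subtracted. At the length of Ttn that trend rests on few genes.

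Together the members held 958815 of the counts with vehicle, 1044609 with IL-6 and 1505673 with OSM. This was 3.84% of all counts with vehicle (95% exact binomial interval 3.84 to 3.85), 3.96% with IL-6 (3.96 to 3.97) and 4.89% with OSM (4.89 to 4.90). The share was thus highest in the OSM library, and the 5 members with the most counts in each library made up 58.5% of the members' counts with vehicle, 58.5% with IL-6 and 66.7% with OSM. These were Tpm1, Tnnt2, Myl2 and Myl3, with Tnni3 for vehicle and IL-6 and Cryab for OSM. The share follows such abundant members and was not adjusted for gene length. Of the 36 members, 15 were higher and 18 lower with OSM than with vehicle beyond counting error. Mitochondrially encoded genes held 17.4% of all counts with vehicle, 16.1% with IL-6 and 13.6% with OSM, and their part in the members' share was not tested beyond leaving them out of the total. Without them, the members held 4.65% with vehicle, 4.72% with IL-6 and 5.66% with OSM.

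Levels were compared between genes in FPKM, which divides counts by gene length, so that ratios between genes depend on the length used. In the vehicle library the members spanned from 0.131 FPKM for Myom3 to 2288 FPKM for Myl2, which ranked 12 among all genes of the table. The next members by FPKM with vehicle were Myl3 (2088), Cryab (1502), Tnnc1 (1290), Tnni3 (1258) and Tpm1 (912). At the low end were Myom3, Neb (0.160 FPKM), Tpm2 (0.476 FPKM) and Myl4 (2.64 FPKM), so that paralogs of the same protein family lay at opposite ends of the range.

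**Figure D2:**
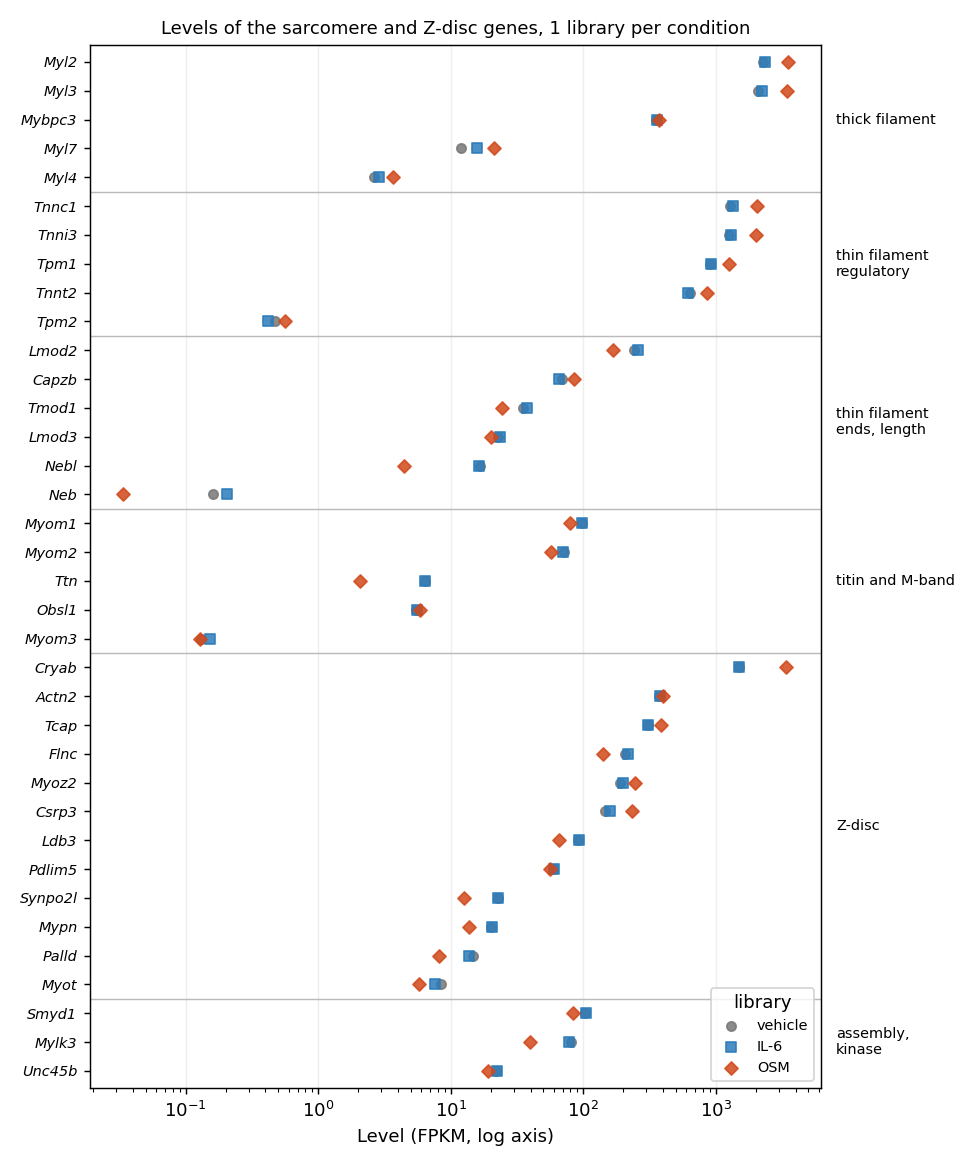
Level in FPKM (log axis) of each member in the vehicle (circles), IL-6 (squares) and OSM (diamonds) libraries, 1 library per condition, ordered by role and by the level with vehicle. Myl2, Myl3, Tnnc1, Tnni3 and Tpm1 lie at the high end, further right with OSM, while the OSM values of Ttn, Nebl and Neb lie to the left of the others, as 2.05, 4.41 and 0.0339 FPKM.

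RefSeq promoters, from 250 bases before to 50 after each listed start (table of build GRCm38.p6), were found for 30 of the 36 members, as 43 sequences, each of which matched GRCm39 at 1 place. Myom2, Neb, Tcap, Cryab, Myot and Lmod3 had no entry. The 3 members with the lowest and the 3 with the highest OSM fold change that had an entry are shown, 5′ to 3′ on the gene's strand, at the listed start nearest to the gene start of the authors' annotation. Capitals mark matches to TTCNNNGAA, the motif of STAT factors, to the CArG box of serum response factor, to the MEF2 site, or to CATTCC, the motif of TEAD factors, on either strand.
Nebl: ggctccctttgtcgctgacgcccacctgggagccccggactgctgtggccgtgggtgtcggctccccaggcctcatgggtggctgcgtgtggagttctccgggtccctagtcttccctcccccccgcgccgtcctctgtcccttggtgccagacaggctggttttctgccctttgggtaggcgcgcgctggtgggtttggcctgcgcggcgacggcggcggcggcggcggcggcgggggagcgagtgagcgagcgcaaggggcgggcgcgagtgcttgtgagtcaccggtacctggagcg
Ttn: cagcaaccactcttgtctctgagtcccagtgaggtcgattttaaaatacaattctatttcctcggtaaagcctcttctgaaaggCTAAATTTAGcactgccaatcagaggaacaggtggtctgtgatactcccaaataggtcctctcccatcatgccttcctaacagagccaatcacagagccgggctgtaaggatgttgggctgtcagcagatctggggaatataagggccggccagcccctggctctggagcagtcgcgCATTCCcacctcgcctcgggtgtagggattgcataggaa
Mylk3: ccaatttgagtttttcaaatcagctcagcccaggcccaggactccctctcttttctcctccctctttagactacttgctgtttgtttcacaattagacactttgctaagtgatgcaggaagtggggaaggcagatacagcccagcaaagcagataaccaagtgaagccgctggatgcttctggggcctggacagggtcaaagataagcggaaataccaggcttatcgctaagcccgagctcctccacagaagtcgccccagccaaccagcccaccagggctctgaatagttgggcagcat
Myl7: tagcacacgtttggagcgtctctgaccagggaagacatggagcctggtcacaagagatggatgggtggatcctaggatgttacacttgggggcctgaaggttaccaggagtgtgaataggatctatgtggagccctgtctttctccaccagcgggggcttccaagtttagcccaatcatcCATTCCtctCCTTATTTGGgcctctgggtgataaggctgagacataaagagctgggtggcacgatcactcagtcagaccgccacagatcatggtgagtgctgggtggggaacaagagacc
Myl3: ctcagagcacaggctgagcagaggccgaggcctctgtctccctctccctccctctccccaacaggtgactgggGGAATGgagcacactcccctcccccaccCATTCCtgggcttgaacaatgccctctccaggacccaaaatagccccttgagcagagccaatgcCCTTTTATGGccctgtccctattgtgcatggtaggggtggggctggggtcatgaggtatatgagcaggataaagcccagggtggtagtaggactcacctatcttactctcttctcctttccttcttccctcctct
Tnni3: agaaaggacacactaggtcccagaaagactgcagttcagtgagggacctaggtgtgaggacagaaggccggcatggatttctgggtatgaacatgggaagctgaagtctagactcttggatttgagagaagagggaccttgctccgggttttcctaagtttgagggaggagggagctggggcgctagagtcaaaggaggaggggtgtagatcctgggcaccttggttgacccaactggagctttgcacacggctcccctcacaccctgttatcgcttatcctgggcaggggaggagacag
In GRCm39 these lie at chr2:17735896-17736195 (minus strand, 1 of 4 listed starts, 330 bases from the authors' gene start), chr2:76812842-76813141 (minus strand, at the authors' gene start), chr8:86107621-86107920 (minus strand, 1 of 2 listed starts, 5304 bases inside the authors' gene), chr11:5848733-5849032 (minus strand, at the gene start), chr9:110592496-110592795 (plus strand, 21817 bases inside the gene) and chr7:4525478-4525777 (minus strand, 1701 bases inside the gene). The Ttn promoter held a MEF2 site whose first base lay at -166, counting the start as 1, and CATTCC at 12. The Myl7 promoter held CATTCC at -70 and a CArG box at -61, and the Myl3 promoter held CATTCC at -177 (reverse strand) and -149 and a CArG box at -85. The windows shown for Nebl, Mylk3 and Tnni3 held none of these letters, which says only that these letters are not in these windows.

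Over all 43 member promoters, TTCNNNGAA was found in 2 (4.65%), those of Myoz2 and Palld, beside 8.30% of all 32851 RefSeq promoters. The CArG box was found in 6 (14.0%, beside 1.63% of all promoters), in Ldb3, Myl3, Myl7, Myom1 and Nebl, and the MEF2 site in 6 (14.0%, beside 3.19%), in Mybpc3, Myom3, Myoz2, Synpo2l and Ttn. CATTCC was found in 13 (30.2%, beside 14.7%), from 12 genes. A match is a description of the letters and not a site of binding, and some of the 43 windows overlap, as those of Ldb3 do. The members with a CArG box included some with higher and some with lower counts with OSM, such as Myl3 and Nebl.

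Among thick filament genes, the ventricular light chains were the most abundant. Myl2, the regulatory light chain of ventricular myosin, had 112878 counts with vehicle, 123253 with IL-6 and 204910 with OSM, or 2288, 2332 and 3518 FPKM. Myl3, the essential light chain, had 107960, 122573 and 210805 counts in the same order, or 2088, 2213 and 3453 FPKM. In both genes the OSM library was the highest and the vehicle library the lowest. The log2 fold change with OSM against vehicle was 0.61 (0.60 to 0.62) for Myl2 and 0.72 (0.71 to 0.73) for Myl3, short of 2-fold, and with IL-6 it was 0.03 and 0.08. After subtraction of the trend on gene length the OSM values were 0.27 and 0.39, and with the trend on canonical transcript length 0.09 and 0.23.

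The atrial light chains were far lower per length. Myl7, the atrial regulatory light chain, had 178 counts with vehicle, 251 with IL-6 and 373 with OSM, or 11.9, 15.7 and 21.2 FPKM. Myl4, the atrial essential light chain, had 310, 363 and 511 counts, or 2.64, 2.89 and 3.69 FPKM. The log2 fold change of Myl7 was 0.82 (0.56 to 1.09) with OSM and 0.40 (0.11 to 0.68) with IL-6, the largest of the members with IL-6, and that of Myl4 was 0.47 (0.27 to 0.68) and 0.13 (-0.09 to 0.35). Per length, Myl7 was 0.521% of Myl2 with vehicle, 0.673% with IL-6 and 0.602% with OSM, and Myl4 was 0.127%, 0.131% and 0.107% of Myl3. These shares depend on the length used. Gene lengths were 4637 bases for Myl4 and 2044 for Myl3, but the canonical transcripts have 943 and 942. Those of Myl7 and Myl2 were 590 and 1950 bases, with canonical transcripts of 602 and 828. Myl7 and Myl4 are also in the list of atrial cardiomyocyte markers given below. Mybpc3, which encodes cardiac myosin-binding protein C, a regulator of cross-bridge formation, was among the 4 members nearest to 0 with OSM, at 37444 counts with vehicle, 40223 with IL-6 and 46682 with OSM, and its log2 fold change for OSM was 0.07 (0.05 to 0.09). All 5 thick filament members had higher scaled counts with OSM beyond counting error, although Myl4 turned sign when the trend on canonical transcript length was subtracted, and 3 of 5 were higher with IL-6. After subtraction of the trend on gene length, Myl7 at 0.15 (-0.11 to 0.41) and Mybpc3 at 0.02 (0.00 to 0.04) were no longer beyond counting error.

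The troponin genes Tnnc1 and Tnni3 were highest with OSM and lowest with vehicle in FPKM. Tnnc1, the calcium-binding subunit, had 33964 counts with vehicle, 37766 with IL-6 and 63543 with OSM, or 1290, 1339 and 2044 FPKM. Tnni3, the inhibitory subunit of the adult heart, had 65637, 73009 and 124455 counts, or 1258, 1306 and 2020 FPKM. Their log2 fold changes with OSM were 0.66 (0.64 to 0.68) and 0.68 (0.66 to 0.69) against vehicle, and with IL-6 both were 0.05. The OSM values were 0.12 and 0.35 after subtraction of the trend on gene length, and 0.10 and 0.18 with that on canonical transcript length. Tnnt2, the tropomyosin-binding subunit, was at 0.41 (0.40 to 0.42) with OSM and -0.04 with IL-6. In FPKM, Tnnc1 stood at 103% of Tnni3 with vehicle, 103% with IL-6 and 101% with OSM, and Tnnt2 at 50.6%, 47.5% and 42.2%, but the gene lengths of Tnnt2 and Tnni3, 7752 and 2063 bases, differ. After subtraction of the trend on gene length the OSM fold change of Tnnt2, 0.67, was above the 0.35 of Tnni3, and with that on canonical transcript length it was 0.12 beside 0.18, so the order of these troponins depended on the length used.

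Tpm1, the main cardiac tropomyosin, had 149685 counts with vehicle, 162177 with IL-6 and 242372 with OSM (912, 923 and 1251 FPKM), the most counts of any member in each library. For OSM against vehicle this gave a log2 fold change of 0.45 (0.44 to 0.46), or 0.60 and 0.24 after subtraction of the trend on gene length and on canonical transcript length. Tpm2, the beta-tropomyosin gene, had only 35, 33 and 49 counts (0.476, 0.419 and 0.564 FPKM), and its fold change of 0.24 could not be told from 0 (-0.42 to 0.91). Per length, Tpm2 was 0.0521% of Tpm1 with vehicle, 0.0454% with IL-6 and 0.0451% with OSM. These shares used gene lengths of 2909 bases for Tpm2 and 6485 for Tpm1. The canonical transcripts have 3271 and 2190 bases, so the shares depend on the length used.

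The genes of thin filament ends and length included the lowest fold changes with OSM. Nebl, which encodes nebulette, the cardiac nebulin-like protein that links actin to the Z-disc, had 6426 counts with vehicle, 6767 with IL-6 and 2008 with OSM, or 16.7, 16.4 and 4.41 FPKM. The vehicle and IL-6 libraries were alike and the OSM library was low. Nebl fell by 1.93 on the log2 scale with OSM (-2.00 to -1.85), to 0.263 of vehicle, while with IL-6 its value was -0.02 (-0.07 to 0.02). After subtraction of the trend on gene length Nebl was at -1.21 (-1.28 to -1.13), still called, as it was with that on canonical transcript length (-1.25), but the exact test with an assumed coefficient of variation of 0.4 did not call it. Neb, the long nebulin of skeletal muscle, was near the bottom of the members in FPKM, with 108 counts with vehicle, 148 with IL-6 and 27 with OSM (0.160, 0.205 and 0.0339 FPKM). Neb fell by 2.25 with OSM (-2.91 to -1.63), the widest interval of the called members, and was at 0.36 (-0.01 to 0.73) with IL-6. With a gene length of 26675 bases, Neb was at -1.14 (-1.80 to -0.52) after subtraction of the trend on gene length and at -0.71 with that on canonical transcript length, and was called in neither case.

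The 4 other members of this group were Tmod1, the pointed-end cap, Lmod2 and Lmod3, which lengthen thin filaments, and Capzb, a subunit of the barbed-end cap. They ranged from -0.53 to 0.29 with OSM, with 3 lower and 1 higher beyond counting error (Capzb, chosen after its values were seen, which turned sign with the trend on canonical transcript length), and from -0.06 to 0.12 with IL-6. Their gene lengths were 1976 to 3946 bases, and Lmod2, singled out after its values were seen, was at -0.53 (-0.57 to -0.49) with a gene length of 1976. Its 241 FPKM with vehicle, 261 with IL-6 and 168 with OSM put the OSM library lowest. Per length, Lmod2 was 683% of Tmod1 with vehicle, 692% with IL-6 and 683% with OSM.

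Titin was the longest member, with a gene length of 117334 bases and 347 exons in its canonical GENCODE M39 transcript. Ttn had 18901 counts with vehicle, 20398 with IL-6 and 7191 with OSM, or 6.37, 6.42 and 2.05 FPKM. The vehicle and IL-6 libraries were again alike and the OSM library was low. Ttn fell by 1.64 on the log2 scale with OSM (-1.68 to -1.60), to 0.320 of vehicle, and was at 0.01 (-0.02 to 0.04) with IL-6. The OSM sign turned, to 0.37, when the trend on gene length was subtracted, but that trend rests on few genes at this length. Ttn lay below the quartiles of the protein-coding genes nearest in length, whose median was -0.78, but these start at 12766 bases. The 15 other genes longer than 30000 bases, at the depth used for that trend, ran from -1.98 to 1.01. In FPKM, Ttn stood at 1.79% of Mybpc3 with vehicle, 1.80% with IL-6 and 0.547% with OSM.

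The M-band genes Myom1 and Myom2 encode myomesins, which cross-link thick filaments, and were at -0.30 and -0.31 with OSM (0.14 and 0.02 after subtraction of the length trend) and at 0.00 and -0.01 with IL-6. Obsl1, an obscurin-like protein that binds titin and myomesin, had 1171 counts with vehicle, 1281 with IL-6 and 1493 with OSM, and its log2 fold change for OSM, 0.10, had an interval of -0.01 to 0.21. A share of 28.4% of the Obsl1 transcript has a copy at 97% identity or more elsewhere among annotated transcripts, so its counts are uncertain. Myom3 had 20, 25 and 23 counts in the same order and its fold change of -0.05 with OSM had an interval from -0.97 to 0.89, so a change short of about 2-fold was not detectable at this depth. In FPKM, Myom2 was 72.8% of Myom1 with vehicle, 72.3% with IL-6 and 72.1% with OSM, and Myom3 was at most 0.160% of it.

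Z-disc genes lay on both sides of 0 with OSM, 5 higher and 7 lower beyond counting error among 12, of which Tcap and Pdlim5 turned sign with either length trend and Flnc and Mypn with that on canonical transcript length. Cryab encodes alphaB-crystallin, a small heat shock protein that binds desmin and titin at the Z-disc. It had 56207 counts with vehicle, 59468 with IL-6 and 149051 with OSM, or 1502, 1484 and 3374 FPKM. Vehicle and IL-6 were alike and OSM was high. Cryab rose by 1.16 on the log2 scale with OSM (1.15 to 1.17), or 2.23-fold, while with IL-6 it was at -0.02 (-0.03 to 0.00). The OSM call ended after subtraction of the trend on gene length (0.72) or on canonical transcript length (0.85), and in the exact test with an assumed coefficient of variation of 0.2 against vehicle, while that test still called Cryab higher with OSM against IL-6. The gene Hspb2 overlaps Cryab on the opposite strand, with 896, 798 and 2096 counts, and whether counting used the strand is not given in the sources used here. A share of 13.8% of the Cryab transcript has a copy at 97% identity or more.

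Csrp3, which encodes muscle LIM protein, a Z-disc adaptor, had 9960 counts with vehicle, 11497 with IL-6 and 18756 with OSM (147, 159 and 235 FPKM), with a log2 fold change of 0.67 (0.63 to 0.70) with OSM and 0.11 with IL-6. The OSM value was 0.44 after subtraction of the trend on gene length and 0.20 with that on canonical transcript length. On the other side were Palld and Synpo2l. Palld, the actin-bundling protein palladin, had 3806, 3851 and 2507 counts (14.6, 13.8 and 8.16 FPKM), a fold change of -0.85 (-0.92 to -0.78), or -0.42 and -0.46 after subtraction of these trends. Synpo2l, a synaptopodin-like Z-disc protein, had 2659, 2839 and 1748 counts (22.7, 22.6 and 12.6 FPKM), a fold change of -0.85 (-0.94 to -0.77), and -0.85 and -0.58 after subtraction. In both genes the OSM library was the lowest, short of a call. Pdlim5, a PDZ and LIM domain protein, was nearest to 0 of those lower with OSM beyond counting error, at 13347, 14390 and 14773 counts, or -0.10 (-0.13 to -0.07), and at 0.23 after subtraction of the length trend.

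The other 7 Z-disc members were Actn2, the alpha-actinin that cross-links actin there, Ldb3, Tcap, which caps titin, Flnc, the muscle filamin, Myoz2, a calcineurin-binding protein, Myot and Mypn. They spanned -0.56 to 0.35 with OSM, 3 higher and 4 lower beyond counting error, and -0.16 to 0.07 with IL-6. Actn2 went from 0.10 to 0.01 (-0.01 to 0.03) after subtraction of the trend on gene length, and to 0.48 with that on canonical transcript length. Their levels with vehicle ran from 8.45 to 371 FPKM. In FPKM, Myot was 2.28% of Actn2 with vehicle, 2.00% with IL-6 and 1.44% with OSM.

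Of the genes of assembly and kinase, Mylk3 encodes the cardiac myosin light chain kinase, which phosphorylates Myl2. Mylk3 had 8693 counts with vehicle, 8981 with IL-6 and 5023 with OSM, or 80.2, 77.4 and 39.3 FPKM. The OSM library was low, at 0.487 of vehicle, and the log2 fold change of -1.04 had an interval from -1.09 to -0.99 that crossed the 2-fold line, so it was not called. It was called lower against vehicle with total counts (-1.09) or after subtraction of the trend on gene length (-1.08) or on canonical transcript length (-1.16), and also by the ratio alone or with a minimum of 100 counts over the pair. Against IL-6 it was at -0.98, not called, and was called with total counts (-1.06) and with the trend on canonical transcript length (-1.10). Per length, Mylk3 was 3.51% of Myl2 with vehicle, 3.32% with IL-6 and 1.12% with OSM. Smyd1, a muscle methyltransferase, and Unc45b, a myosin chaperone, were at -0.31 and -0.22 with OSM (Unc45b turned sign with the trend on canonical transcript length) and each at 0.02 with IL-6, and 28.8% of the Unc45b transcript has a copy at 97% identity or more.

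Several further members share bases with another gene that had counts. Nisch overlaps Tnnc1 on the opposite strand, with 4176 counts with vehicle, 4452 with IL-6 and 3604 with OSM, Myl12a overlaps Myom1 (6303, 6680 and 8846), Krcc1 overlaps Smyd1 (2818, 2876 and 3181) and Tstd2 overlaps Tmod1 (494, 494 and 421). Without strand, reads of such pairs cannot be told apart where they overlap. No copy at 97% identity was found for the troponin, tropomyosin and myosin light chain members, and for Mypn 10.1% of the transcript has one.

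The OSM fold change moved with gene length. Over 9445 protein-coding genes averaging 100 counts or more in the pair, Spearman's correlation of the log2 fold change with gene length was -0.52 for OSM against vehicle, a description across genes, which are not replicates and share the same libraries. Over all 15537 compared genes, of any biotype and depth, it was -0.29. Across the 36 members it was -0.63. For IL-6 against vehicle the values were -0.07 over 9361 genes and -0.18 over the members, and for OSM against IL-6 -0.51 over 9485 genes and -0.61 over the members. Over all compared genes these pairs gave -0.03 and -0.29. In 16 bins of near-equal numbers of genes, the median OSM fold change ran from 0.53 in the bin of the shortest genes (median length 1231 bases) to -0.73 in that of the longest (15067 bases).

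Members followed that order to a large degree. Of the 16 members with a gene length under 4000 bases, 12 were above 0 with OSM, beside 2828 of 3772 protein-coding genes of that length. Their median was 0.33, beside 0.29 over those genes. Of the 11 between 4000 and 8000 bases, 4 were above 0, beside 1662 of 3745 genes, with a median of -0.22 beside -0.07. Of the 9 members of 8000 bases or more, 1 (Obsl1) was above 0 and 8 below. Among 1928 genes of that length 375 were above 0 and 1553 below, and the medians were -0.55 for members and -0.47 for these genes. With IL-6 against vehicle the medians of the members in these classes were 0.05, 0.02 and 0.01. What produces the trend on gene length was not tested.

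**Figure D3:**
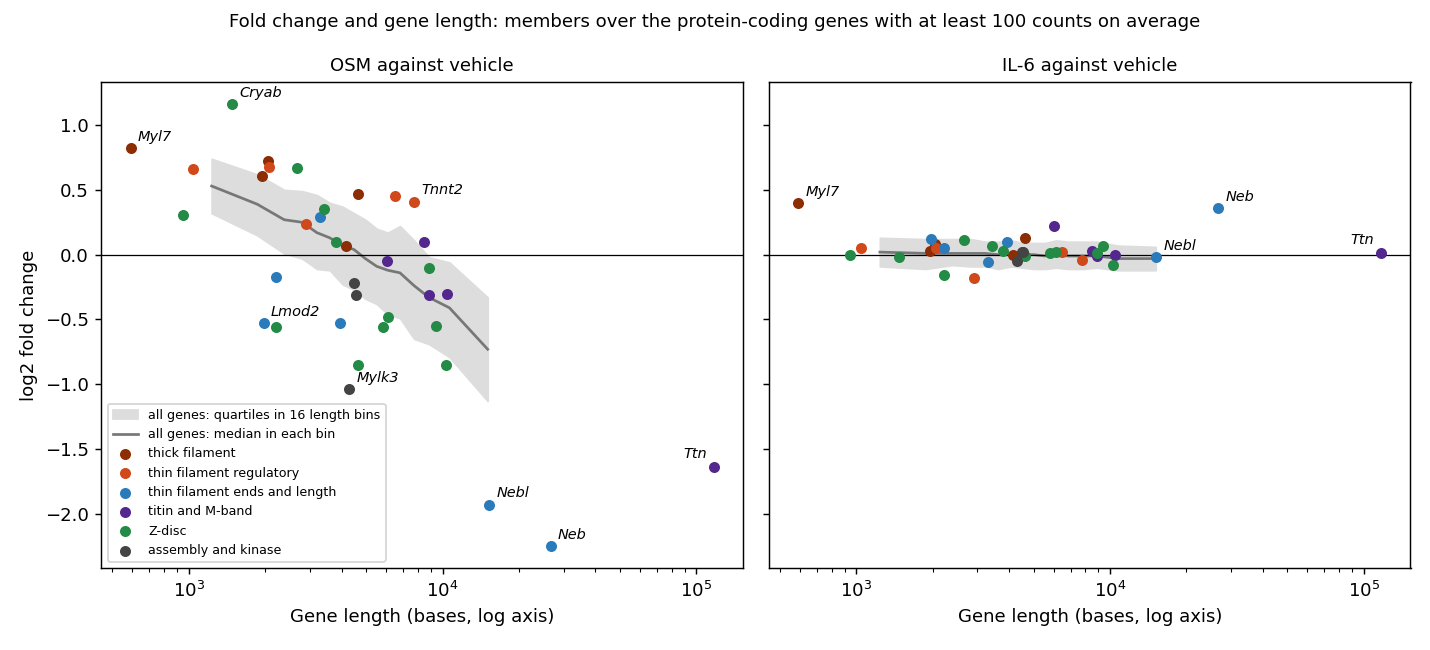
Log2 fold change against gene length (bases, log axis) of the 36 members (points, coloured by role) for OSM against vehicle and IL-6 against vehicle, over the median (line) and quartiles (band) of protein-coding genes in 16 bins of gene length. With OSM the median falls from 0.53 in the shortest bin to -0.73 in the longest, and with IL-6 it stays between -0.03 and 0.02.

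Each member was therefore set beside the protein-coding genes nearest to it in gene length. By construction, as many of those genes lie within their quartiles as outside them, and as many above as below. With OSM against vehicle, 12 of the 36 members lay within the quartiles of those genes, 10 above them and 14 below, and the median difference between a member and the median of its length neighbours was 0.00. Above the quartiles were the light chains Myl2, Myl3, Myl4 and Myl7, with Tnnt2, Tnni3, Tpm1, Obsl1, Csrp3 and Cryab. Below were Ttn, Nebl, Neb, Ldb3, Tcap, Myot, Mypn, Palld, Lmod2, Lmod3, Tmod1, Mylk3, Synpo2l and Smyd1. These places depend on the neighbours and on the length used. The neighbours of Myl7 ran from 243 to 1498 bases, and after subtraction of the smoothed trend Myl7 was at 0.15 (-0.11 to 0.41). With the trend on canonical transcript length, Myl4 was at -0.01 and Mypn at 0.17, each with the other sign. For IL-6 against vehicle, 29 members lay within the quartiles, 5 above and 2 below, and for OSM against IL-6 15 within, 8 above and 13 below.

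Beside Tnnt2, with its gene length of 7752 bases, the median of its length neighbours was -0.22, and beside Tpm1 (6485 bases) it was -0.11. By that length both stood further above genes of their length than above 0, but their canonical transcripts have 1776 and 2190 bases, and with the trend on that length subtracted they were at 0.12 and 0.24, nearer to 0 than before. Cryab, at 1.16, stood beside a median of 0.46. In the other direction, Mylk3 at -1.04 stood beside a median of 0.05, and Lmod2 at -0.53 beside 0.37. Nebl at -1.93 stood beside -0.70, and Neb at -2.25 beside -0.78. The neighbours of Neb, which has 26675 bases, ran from 12765 to 41619 bases, so they were not close in length. After subtraction of the smoothed trend Neb was at -1.14. Mybpc3 and Tpm2, at 0.07 and 0.24, lay close to the medians of 0.06 and 0.25 for their lengths.

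For Ttn the neighbours were not close in length. The genes nearest to it ran from 12766 to 123179 bases, with a median fold change of -0.78, and 15 other genes counted at this depth were longer than 30000 bases, with a median of -1.03 and a range from -1.98 to 1.01. When the smoothed trend on gene length was subtracted from every gene, 0 members were called higher and 2 lower with OSM against vehicle, Nebl at -1.21 and Mylk3 at -1.08, beside 3.30% of all compared genes called higher and 4.67% lower. In the same way 0 members were called with IL-6 against vehicle (1.73% and 1.75% of all compared genes), and 0 higher and 1 lower, Nebl, with OSM against IL-6 (3.46% and 4.88%). With OSM against vehicle Ttn then stood at 0.37, a change of sign, and Neb at -1.14 and Cryab at 0.72 were no longer called. The trend at the length of Ttn rests on few genes. By role, the medians after subtraction were 0.27 for the thick filament, 0.35 for the regulatory thin filament genes, 0.14 for titin and the M-band, -0.22 for the Z-disc, -0.32 for assembly and kinase and -0.74 for thin filament ends and length. These medians depend on the length used. With the trend on canonical transcript length, Mypn of the Z-disc went from -0.45 to 0.17. Actn2 went from 0.01 to 0.48, and Tnnt2 of the thin filament from 0.67 to 0.12.

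**Figure D4:**
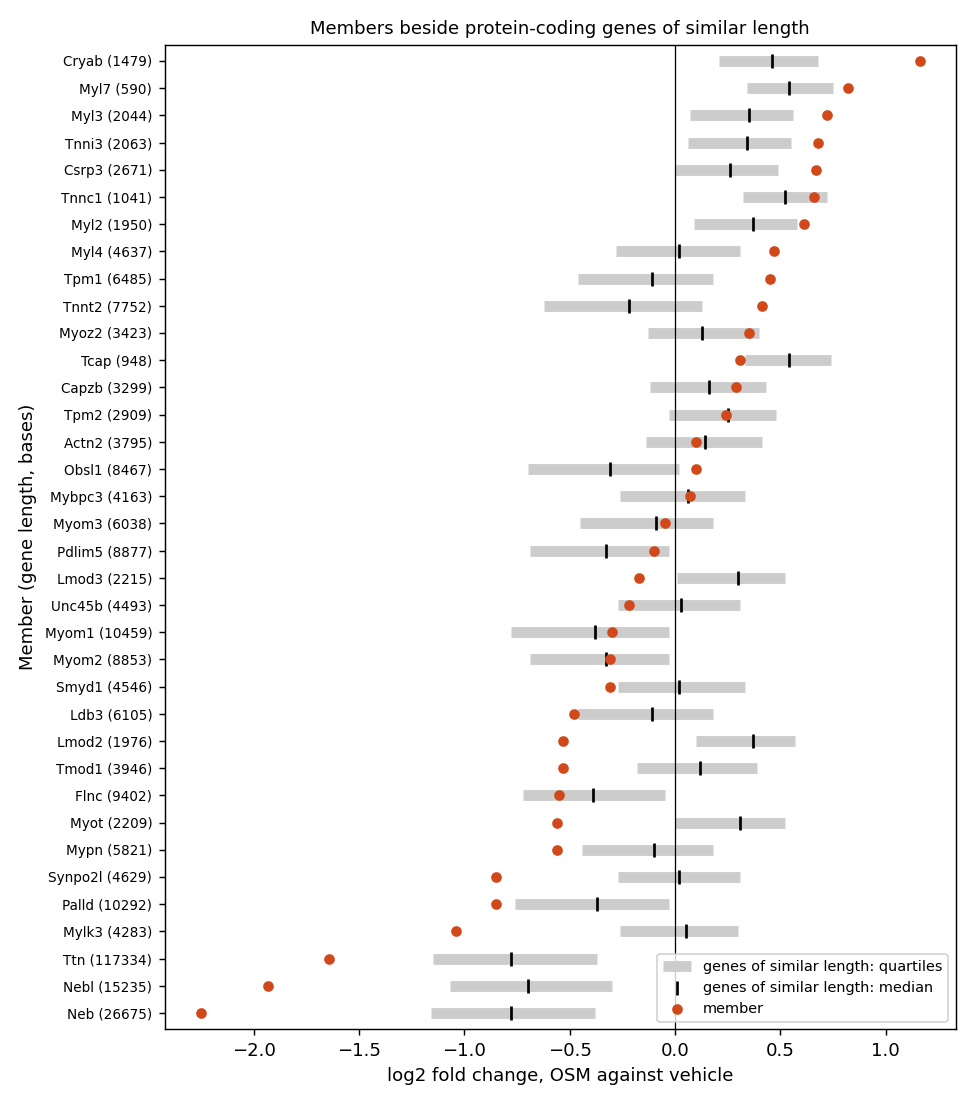
Log2 fold change of each member with OSM against vehicle (points) beside the median (tick) and quartiles (bar) of the protein-coding genes nearest in gene length, with gene length in bases after each name. Of the 36 members, 10 lie above the bar, 12 within it and 14 below it. By construction each bar holds as many of those genes as lie outside it.

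Myosin heavy chains and sarcomeric actins, which form the filaments themselves, were taken as a list of 5, and 0 were called in any pair. The median of the log2 fold changes was 0.38 with OSM against vehicle (0.13 after subtraction of the trend on gene length) and 0.09 with IL-6. Actc1, the cardiac actin, was at 3184 FPKM with vehicle, 3385 with IL-6 and 3517 with OSM, and Myh6, the adult myosin heavy chain, at 1100, 1101 and 1071. Their log2 fold changes with OSM were 0.14 and -0.05, and -0.28 and 0.13 after subtraction of the length trend. Acta1, the skeletal actin that the fetal and stressed heart also expresses, was at 144, 148 and 208 FPKM, a log2 fold change of 0.53 (0.48 to 0.57) with OSM and 0.10 after subtraction. Myh7, the fetal myosin heavy chain, was at 2.34, 3.17 and 3.07 FPKM, a log2 fold change of 0.38 (0.22 to 0.55) with OSM, 0.70 after subtraction, and 0.43 (0.27 to 0.60) with IL-6. Its relative Myh7b was at 0.691, 0.834 and 1.16 FPKM, 0.73 (0.41 to 1.07) with OSM, 0.90 after subtraction, and 0.27 (-0.09 to 0.63) with IL-6. Both were singled out after their values were seen. Nppa, another gene of the fetal and stress program, which encodes atrial natriuretic peptide, was at 24.2, 24.3 and 38.5 FPKM, a log2 fold change of 0.66 with OSM and 0.08 after subtraction.

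Of 35 other sarcomere and Z-disc genes of striated muscle, 33 were compared with OSM against vehicle, of which 4 were called higher and 1 lower. Those that rose were Ankrd1, a titin-binding ankyrin repeat protein (778 FPKM with vehicle, 785 with IL-6 and 1717 with OSM), its relative Ankrd2 (1.35, 1.10 and 4.74), Pdlim7 (6.91, 6.53 and 15.5) and Tpm3, a tropomyosin gene (2.46, 2.56 and 7.59). Their log2 fold changes with OSM were 1.13, 1.80, 1.15 and 1.62. After subtraction of the trend on gene length they were 0.94, 1.29, 1.18 and 1.75, of which those of Pdlim7 and Tpm3 were called. Xirp2, an actin-binding Xin repeat protein with a gene length of 14378 bases, fell by 1.13 (81.9, 77.9 and 37.7 FPKM), and was at -0.45 and not called after subtraction. Hspb7, a small heat shock protein, was at 1040, 1103 and 1070 FPKM, and Des, the intermediate filament desmin, was at 863, 855 and 1341, short of 2-fold. With IL-6 against vehicle 0 of 33 were called higher and 1 lower, Mybphl, at 47 counts with vehicle, 2 with IL-6 and 53 with OSM, a log2 ratio of -4.65 (-7.74 to -2.72). With OSM against IL-6, 5 of 34 were called higher (Tpm3, Ankrd1, Ankrd2, Pdlim7 and Mybphl) and 1 lower (Xirp2), and after subtraction of the trend on gene length 4 were called higher (Tpm3, Ankrd2, Pdlim7 and Mybphl) and 0 lower.

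Of 10 fast skeletal muscle genes, Myh1, Myh2, Myh4 and Tnnc2 had 0 counts in all 3 libraries, which allows up to 3 counts in each, and Mybpc1 had 0 with vehicle and IL-6 and 4 with OSM. The most abundant was Myl1, at 6.82 FPKM with vehicle, 6.23 with IL-6 and 8.62 with OSM, followed by Mylpf with 8, 11 and 18 counts. Tnni2, the fast troponin I, was called higher with OSM against vehicle on 3 counts with vehicle, 7 with IL-6 and 25 with OSM, a log2 ratio of 2.81 (1.10 to 5.18), and 0 of the 3 genes compared were called lower. Tnni2 was at 2.38 and not called once the trend on gene length was subtracted. In the other pairs 0 of 3 were called.

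Among 13 regulators of sarcomere gene transcription, 0 were called higher with OSM against vehicle and 2 lower, with a median of -0.69, and 0 were called with IL-6, while with OSM against IL-6 Mef2c alone was called, lower, and was at -0.60 and not called after subtraction of the trend on gene length. Their median with OSM against vehicle was -0.19 once the trend on gene length was subtracted, and 0 of the 13 were called. Mef2c, a MEF2 factor, fell by 1.31 with OSM (3.14 FPKM with vehicle, 3.12 with IL-6 and 1.27 with OSM) and Tbx20, a T-box factor, fell by 1.23 (5.25, 4.75 and 2.24 FPKM). Their gene lengths were 15715 and 11997 bases, and after the trend on gene length was subtracted they stood at -0.57 and -0.69. The most abundant were Nkx2-5 (39.3, 38.9 and 48.7 FPKM), Srf, the serum response factor (36.8, 36.6 and 47.7), and Mef2d (35.8, 36.8 and 30.5), of which Nkx2-5 went from 0.30 to -0.09 after subtraction of the length trend.

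The cells were checked against markers. The 9 cardiomyocyte markers, of which Mb was the most abundant, summed to 11563 FPKM with vehicle, 11764 with IL-6 and 13670 with OSM, with none at 0. Their fold changes with OSM against vehicle had a median of -0.05, with 4 above 0 and 5 below beyond counting error. After subtraction of the length trend the median was -0.04, with 2 above and 5 below. Mb was at 0.40 (-0.04 after subtraction), and Ryr2 was called lower with OSM, at -1.53, with a gene length of 28790 bases, and was at -0.37 and not called after subtraction of the length trend. The 6 atrial cardiomyocyte markers summed to 42.5, 45.6 and 66.8 FPKM, with Nppa the most abundant and Kcna5 at 0 with IL-6. Their sum, made up mostly of Nppa and Myl7, was highest with OSM, as were Myl4 and Myl7, which belong to this list. Sln went from 3.54 FPKM with vehicle to 2.60 with IL-6 and 3.20 with OSM. Its log2 fold change with OSM against vehicle, -0.15 (-0.53 to 0.22), could not be told from 0, and with IL-6 it was -0.44 (-0.85 to -0.04). Bmp10 had 4, 14 and 2 counts in the same order of libraries. Sln and Bmp10 were singled out after their values were seen. Of the 5 compared with OSM against vehicle, 3 were above 0 beyond counting error and 0 below, with a median of 0.66, and after subtraction of the length trend 1 was above and 1, Sln at -0.62, below, with a median of 0.15. The study describes these ACMs as ventricular, and the part of any atrial cells in the values of Myl4 and Myl7 was not tested.

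Markers of other cells were low in each library. The 6 endothelial markers, with Cdh5 the most abundant and none at 0, summed to 6.93, 6.93 and 7.65 FPKM, and the 7 of smooth muscle and pericytes, with Acta2 the most abundant, to 22.2, 20.3 and 23.3, with Tagln at 0 with vehicle and Cnn1 at 0 with IL-6. The 7 fibroblast markers, led by Dcn, summed to 0.842, 0.753 and 1.08 FPKM, with Col1a1 at 0 with IL-6 and OSM and Tcf21 at 0 with OSM. Of the 5 compared with OSM against vehicle, 1 was above 0 beyond counting error, Dcn at 1.17 (0.69 to 1.68), and 0 below. Their median was -0.35, or -0.08 after subtraction of the length trend. The 6 macrophage markers, led by Csf1r, summed to 1.39, 1.14 and 1.32 FPKM, with C1qa, C1qb and Fcgr1 at 0 in each library and Adgre1 at 0 with IL-6. The 4 T cell markers summed to 0.0217, 0.0406 and 0.0738 FPKM, with Cd3e and Trac at 0 in each library, Cd3d at 0 with vehicle and IL-6, and Cd8a, the most abundant with vehicle and IL-6, at 0 with OSM, where Cd3d was the most abundant.

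**Figure D5:**
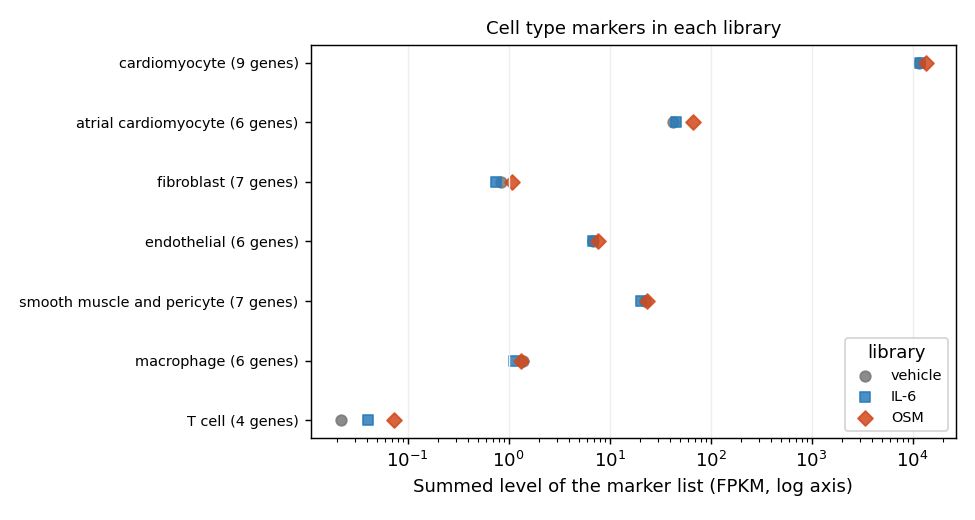
Summed level (FPKM, log axis) of each cell type marker list in the vehicle (circles), IL-6 (squares) and OSM (diamonds) libraries. Cardiomyocyte markers sum to between 11563 and 13670 FPKM, and the lists of non-muscle cells to far less in each library.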

How the data were processed

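RNA of ACMs treated with vehicle, IL-6 or OSM was pooled, selected with poly-T beads and sequenced as 1 library per condition. The authors deposited raw counts (whole numbers) with gene lengths. The deposited FPKM of the authors are counts divided by gene length and by 1 constant per library. The submitters' processing notes name fastp, HISAT2 2.2.1, featureCounts 2.0.6 and edgeR 4.0.16 with GRCm39, while the methods of the study name other versions of featureCounts and edgeR. Whether counting used the strand is not given in the sources used here.

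From the counts, TMM factors were computed for each pair of libraries with edgeR 4.0.16 in R 4.3.3 over genes with at least 10 counts in the pair. The log2 ratio of scaled counts has a 95% interval from the Clopper-Pearson limits of 1 library's share in the summed counts (scipy 1.17.1), and the rule was tested on simulated data. Those data held counting error only and were scaled by library totals, so the test does not cover the spread between cultures. P-values are not given, because each condition had 1 library. Lengths and exons of canonical transcripts came from GENCODE M39, and copies were sought with blastn 2.17.0 at 97% identity over at least 75 bases. The smoothed trend on gene length (lowess, span 0.3, statsmodels 0.14.6) was fitted on protein-coding genes averaging 100 counts or more.

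Members given in each library are those called in any pair, the 12 with the largest absolute OSM fold change, the 6 highest and 4 lowest in FPKM with vehicle and the 4 nearest to 0; the rest are given within their role. From further lists, called genes and up to 3 with the highest FPKM with vehicle are named, and from marker lists the most abundant gene and markers at 0. The members and lists were chosen with earlier results of these data known. Alternatives were DESeq2 1.42.0 size factors, total counts, upper-quartile factors, the trend on gene length subtracted, other call rules and filters, and FPKM.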

Additional observations from a re-analysis of the deposited data

How the results depend on the processing

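Across size factors of DESeq2, total counts and upper-quartile factors, no member changed sign with OSM against vehicle. With total counts Mybpc3 changed sign with OSM against IL-6, and Myom2 and Synpo2l with IL-6 against vehicle. The median of all genes shifted by at most 0.08 in size in any pair (-0.08 for OSM against IL-6 with total counts). Subtracting the trend on gene length gave 0 members higher and 2 lower with OSM against vehicle, where 513 of all compared genes were called higher and 726 lower, and 0 higher and 1 lower (Nebl) with OSM against IL-6, where 538 and 758 were. Ttn then stood at 0.37 against vehicle and 0.29 against IL-6, and the members' medians were 0.03 and 0.00. The trend on canonical transcript length, a setting chosen after seeing the data, gave 0 higher and 2 lower in both pairs (534 and 669, and 558 and 707, of all compared genes), 0.98 and 0.95 for Ttn, and medians of 0.11 and 0.05. Subtracting the trend on gene length from the further lists was also chosen after seeing the data. With OSM against vehicle 6 members changed sign with the first trend and 9 with the other. Total counts gave 4 members lower in both OSM pairs, Mylk3 added, beside 540 higher and 936 lower of all compared genes against vehicle and 544 and 979 against IL-6, and medians of -0.13 against vehicle and -0.24 against IL-6, a minimum of 100 summed counts gave -0.16 and 4 members lower (Mylk3 added) against vehicle, the ratio alone also gave those 4 there, and FPKM with 1 added gave -0.07 against IL-6. Calls beyond 1.5-fold gave 6 members higher and 6 lower with OSM against vehicle and 4 and 8 with OSM against IL-6. An edgeR exact test with an assumed coefficient of variation of 0.2 gave 0 members higher with OSM against vehicle and 1, Cryab, with OSM against IL-6, and 3 lower in each (Ttn, Nebl and Neb), beside 630 higher and 877 lower, and 709 and 892, of all compared genes. With 0.4 it gave 0 higher and 0 lower in both OSM pairs, so that the call of Nebl ended too. With IL-6 against vehicle 0 members were called under each setting. The cause of these differences was not tested, other than that a lower fold adds calls by construction.

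Over all compared genes, higher and lower calls with OSM against vehicle (575 and 849) were 308 and 460 with that minimum, 1328 and 1868 beyond 1.5-fold, 1559 and 2049 by the ratio alone, and 43 and 11 with an assumed 0.4. For IL-6 against vehicle (274 and 269) they were 12 and 7, 457 and 445, 1040 and 1023, and 1 and 0 in the same order, and 112 and 125 with an assumed 0.2. For OSM against IL-6 (659 and 846) they were 310 and 435, 1362 and 1856, 1555 and 1986, and 57 and 20. The members' share of counts without mitochondrially encoded genes was 4.65% with vehicle, 4.72% with IL-6 and 5.66% with OSM, and without Ttn 3.77%, 3.89% and 4.87%. No paired analysis was possible because each condition had 1 library. With 1 library per condition, the spread between cultures is unknown and every interval covers counting error only. Members with few counts, such as Myom3, Tpm2 and Neb, have wide intervals.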
